A study of Mus musculus with 9 samples.

Results

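The HMGN and HMGB genes were described in mouse testis at postnatal day 10, in a study that set testes labelled Lin28a knockout against wild-type testes. The group holds 7 genes, Hmgn1, Hmgn2, Hmgn3, Hmgn5, Hmgb1, Hmgb2 and Hmgb3, of 23515 genes in the table, and was picked by name with the levels of these genes in both groups already known. All 7 were present, in 8 transcript rows, and all passed a filter on a mean level of at least 1 FPKM (fragment counts scaled for transcript length and library size). Of the 9 samples of the series, 3 are RNA-seq libraries labelled Lin28a knockout, which their titles call cKO, and 3 are RNA-seq libraries labelled wild type. The other 3, not analysed here, are CLIP samples of RNA recovered with the LIN28A protein. Every sample is labelled C57BL/6 testis of the same age. The labels name no floxed allele, Cre driver or cell type of deletion, nor do they tell if each library was made from its own animal.

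HMGN proteins bind the nucleosome core particle itself and loosen chromatin, in part by competing with linker histone H1. HMGB proteins carry tandem HMG boxes that bend DNA without reading a fixed sequence, followed by an acidic tail, and HMGB1 also acts as an alarm signal when cells release it. In the testis, HMGB2 is known for high levels in germ cells of the adult and for the reduced fertility of males that lack it, while HMGB4 belongs to spermatids.

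The table gives a single pooled FPKM value per group, so values carry no error over libraries, and depth is unknown. Its columns are labelled case and control. The total was 328509 FPKM for case and 325735 FPKM for control, and where a pair of values follows a gene or list, case comes first. Read by name, case is the knockout. Lin28a, the targeted gene, was however higher in the case column, 23.4 against 8.82 FPKM in the authors' deposited table, or 2.66-fold. The authors' test gave its row p = 5.62e-07 and q = 0.00191, which puts it among the 7 of 13629 tested rows with q under 0.05. The level of the targeted gene thus runs against the label, so the columns keep their own names throughout, and each direction rests on those names alone. The question behind the comparison is how the loss of Lin28a alters testis mRNA.

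Of the 7 genes, Hmgn2 stood apart. It was at 56.9 FPKM in the case column against 104 FPKM in the control column, 1.83-fold lower in the former, while the other 6 lay within 1.16-fold of equality. In bulk tissue, fewer cells of a type and less RNA per cell cannot be told apart. By the authors' q-value of 0.05, 0 of the 8 rows passed in either direction, where 0.0514% of the 13629 tested rows of the table did. At the authors' unadjusted p under 0.05 there was 1 of 8, the row of Hmgn2, where 1.28% of tested rows were. At least 1.5-fold lower was again Hmgn2 alone, 1 of 7 genes, where 1.43% of the 12699 genes analysed were. Since the genes were picked with these values known, nothing is read from the counts.

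**Figure D1:**
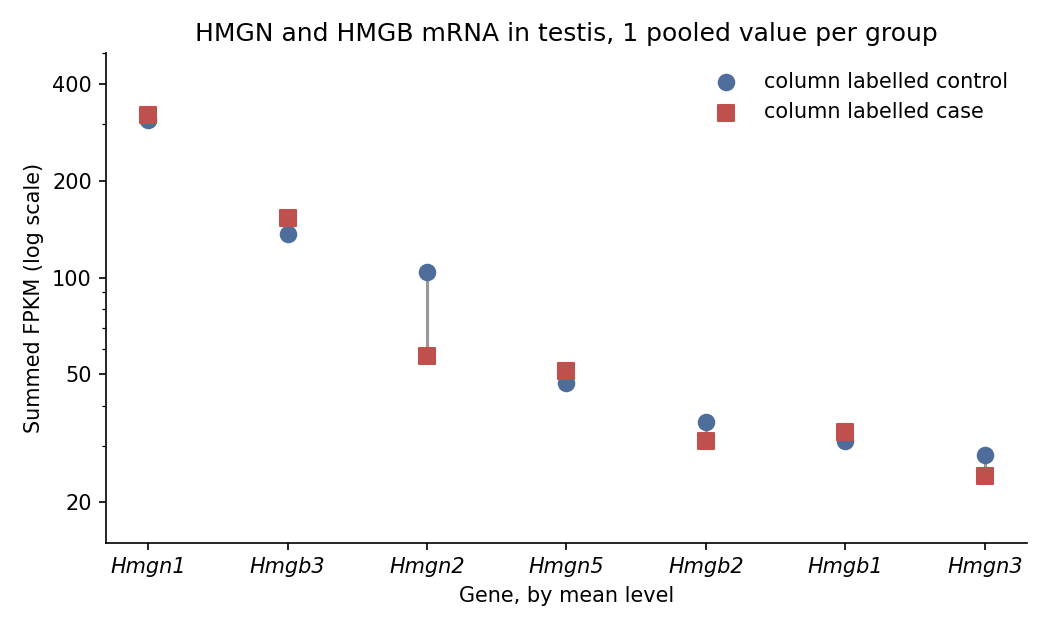
Summed FPKM on a log axis for each of the 7 genes, with 1 pooled value per group: circles for the control column, squares for the case column, and a line joining the pair. Hmgn2 stands at 104 FPKM in the control column and 56.9 FPKM in the case column, and the other pairs nearly touch.

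The upstream sequences of Hmgn2, of its close relative Hmgn1 and of Hmgb2 are shown because they differ in a motif that most of the promoters share. CCAAT boxes, the sites of the factor NF-Y in many growth and cell cycle genes, are in capitals. Each run holds the 250 bases before the RefSeq start of the gene, 5′ to 3′ on the gene's own strand, from RefSeq on GRCm38.p6. That of Hmgn2 is chr4:133967992-133968241, minus strand; that of Hmgn1 is chr16:96127726-96127975, minus strand; that of Hmgb2 is chr8:57511593-57511842, plus strand.
Hmgn2: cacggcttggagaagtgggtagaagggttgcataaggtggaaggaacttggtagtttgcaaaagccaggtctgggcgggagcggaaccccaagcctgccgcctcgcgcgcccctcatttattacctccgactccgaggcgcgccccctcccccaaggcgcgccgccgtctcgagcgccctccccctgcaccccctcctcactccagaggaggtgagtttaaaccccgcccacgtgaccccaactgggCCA
Hmgn1: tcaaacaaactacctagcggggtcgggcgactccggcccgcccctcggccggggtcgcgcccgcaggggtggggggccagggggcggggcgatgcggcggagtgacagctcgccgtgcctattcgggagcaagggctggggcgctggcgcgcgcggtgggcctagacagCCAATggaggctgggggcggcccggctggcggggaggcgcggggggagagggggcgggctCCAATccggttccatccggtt
Hmgb2: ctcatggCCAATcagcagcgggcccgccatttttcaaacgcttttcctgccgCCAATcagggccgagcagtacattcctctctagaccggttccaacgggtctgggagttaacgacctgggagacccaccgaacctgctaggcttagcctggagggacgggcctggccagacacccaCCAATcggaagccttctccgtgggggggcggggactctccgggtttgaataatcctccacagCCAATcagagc

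The single CCAAT of Hmgn2 begins 3 bases before its start and runs across it. Hmgn1 has its pair 81 and 21 bases before the start, and Hmgb2 has 4, at 243, 198, 73 and 11 bases before the start. Promoter windows of 300 bases, 250 before and 50 after the start, were matched for 6 of the 7 genes, all but Hmgn3, with a second window for Hmgb1. CCAAT or its other strand ATTGG occurred in 6 of these 7 windows, the exception being the second window of Hmgb1, against 37.4% of the 32851 windows of the RefSeq table. At least 3 matches were found in the first window of Hmgb1, in Hmgb2 and in Hmgb3, where 3.37% of all windows held as many. GGGCGG or CCGCCC, the GC box, was in 5 of 7 windows (35.7% of all), CACGTG, an E-box that reads the same on both strands, in 2 (7.15% of all), and TTTGAA or TTCAAA, the CHR element of cell cycle genes, in 2 (17.9% of all). TATAAA or TTTATA was in 0 of 7, where 13.6% of all windows held it. The E-box lay 21 bases before the start of Hmgn2 and in the second window of Hmgb1. Matches of different motifs overlapped in 1 place, where CCGCCC runs into the E-box of Hmgn2. The windows were rich in G and C, at 56.7% to 77.0%, against a median of 52.7% over all windows, and motifs made of G and C are met more often in such sequence. The motifs were chosen with the sequences in view, and a match is a description of letters.

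Hmgn1 had the highest level of the family and Hmgn3 the lowest, with a mean over both columns of 316 FPKM and 26.1 FPKM. FPKM is scaled to transcript length, so levels can be set side by side between genes, with a limit. Of the RefSeq mRNAs of Hmgb1 1 of 2 has a row, of Hmgb2 1 of 4 and of Hmgb3 1 of 4, while the HMGN genes have all of theirs. Hmgn1 ranked number 82 of the 12699 genes analysed. Hmgb3 followed at a mean of 145 FPKM, Hmgn2 at 80.5, Hmgn5 at 49.2, Hmgb2 at 33.3 and Hmgb1 at 32.1 FPKM. Each step down this order was at least 1.2-fold except that from Hmgb2 to Hmgb1, which was 1.04-fold and changed places between the columns. No spread over libraries is at hand to set beside these steps.

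Hmgn1 encodes the founding nucleosome-binding protein of the family together with Hmgn2. Hmgn1 (NM_008251; mm10 chromosome 16, 96121588 to 96127725) was at 322 FPKM in the case column against 310 FPKM in the control column, a ratio of 1.04 from the authors' deposited table. Hmgn2 (NM_016957; mm10 chromosome 4, 133964739 to 133967991) had a ratio of 0.547, and the authors' deposited table lists it with p = 6.87e-04 and q = 0.492, which does not pass. A further 18 tested rows had a smaller p. On the log2(FPKM + 1) scale, which understates the change of genes at low level, the difference of Hmgn2 was -0.86, case minus control, and that of Hmgn1 was 0.05. Together the HMGN genes summed to 454 and 489 FPKM.

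The difference of Hmgn2 was set among genes of like level. Of 1568 genes with a mean between 40.3 and 161 FPKM, Hmgn2 had the second lowest difference. Tex101, a germ cell surface protein, was lower still at 87.0 and 165 FPKM, and Sycp3, of the meiotic chromosome axis, came next at 69.2 and 125 FPKM, followed by Sycp1 at 38.5 and 59.1 FPKM. After Sycp1 came H2-K1 at 32.6 and 49.2 FPKM and Pwwp3b at 39.2 and 53.7 FPKM. All these were named after their values were seen. Tex101, Sycp1 and Sycp3 are on the list of meiotic prophase genes. H2-K1, Pwwp3b and Hmgn2 are not on that list, and the cells that express them were not tested. Among all 12699 genes the difference of Hmgn2 ranked number 39 from the lowest.

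**Figure D2:**
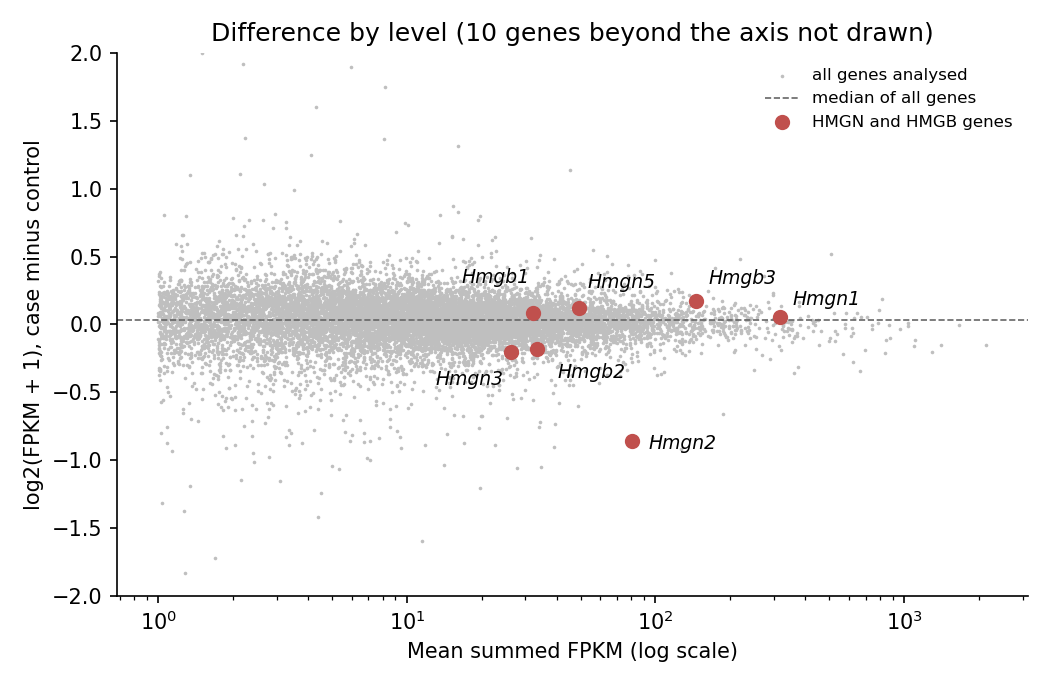
Difference of log2(FPKM + 1), case minus control, against mean summed FPKM on a log axis, for the 12699 genes analysed (grey) and the 7 HMGN and HMGB genes (red), with 10 genes beyond a difference of 2 not drawn. Hmgn2 at -0.86 lies at the lower edge of the grey points, where Tex101 alone of the 1568 genes of like level is lower, and the other 6 lie inside the cloud.

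Hmgn3, also known as a protein that binds the thyroid hormone receptor, was the one gene with more than 1 transcript row. Its row NM_175074 was at 15.6 FPKM in the case column against 15.9 FPKM in the control column, per the authors' deposited table. Its row NM_026122 was at 8.67 and 12.2 FPKM. Both rows are placed at mm10 chromosome 9, 83109942 to 83146607, so they overlap and the split of reads between them is an estimate. NM_026122 carried 35.8% of the gene in the case column and 43.5% in the control column. Summed, Hmgn3 was at 24.2 and 28.1 FPKM, a difference of -0.20 on the log2 scale, and the row of higher level alone gave -0.02. The authors' deposited table lists p = 0.353 for NM_026122 and p = 0.954 for NM_175074, so neither row passed.

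Hmgn5, whose protein has a long acidic tail, is on chromosome X, as is Hmgb3. Hmgn5 (NM_016710; mm10 chromosome X, 109004537 to 109013380) was at 51.2 FPKM in the case column against 47.1 FPKM in the control column, per the authors' deposited table, and Hmgb3 (NM_008253; mm10 chromosome X, 71555993 to 71560654) at 154 and 136 FPKM. Both were slightly higher in the case column, by 0.12 and 0.17 on the log2 scale. The 543 genes of chromosome X had a median of -0.0033 and the 12139 autosomal genes a median of 0.03, so these genes lay above the middle of their own chromosome.

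Hmgb1 and Hmgb2 were nearly level with each other and differed little between the columns. Hmgb1 (NM_010439; mm10 chromosome 5, 149047227 to 149053037) was at 33.0 FPKM in the case column against 31.1 FPKM in the control column, per the authors' deposited table. Hmgb2 (NM_008252; mm10 chromosome 8, 57511843 to 57515999) was at 31.1 and 35.5 FPKM. Their differences were 0.09 and -0.18 on the log2 scale, for which the authors' deposited table lists p = 0.733 and p = 0.458. The HMGB genes summed to 218 and 203 FPKM. The level of Hmgb1 is uncertain, because RefSeq names 13 pseudogenes after it that could take its reads, against 2 for Hmgn2, 1 for Hmgb3 and 0 for each of the other 4 genes. Copies under other names were not counted, so a low count does not mean that a gene, Hmgn1 and Hmgn2 included, lacks copies. Of those 13, a single one, Hmgb1-rs17, has a row in the table, at 0.0312 FPKM in the case column and listed at 0 in the other. The sources used here do not say how reads that match several places were counted.

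The genes lay on both sides of equality. Of the 7, 4 were higher in the case column, where 60.8% of all genes analysed were, and 3 were lower. With the columns rescaled by the median of ratios the same count was 4 of 7, and the share of all genes was 50.6%. The median difference was 0.05, beside 0.03 over all genes, and it was 0.07 without Hmgn2.

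Hmgn2 lies beside the targeted gene. The nearer edge of Hmgn2, which is its start on the minus strand, lies 35.3 kb from Lin28a (NM_145833; mm10 chromosome 4, 134003330 to 134018816). Dhdds, a subunit of the enzyme that makes dolichol precursors, is the only gene of the table between them. Dhdds, 2.47 kb from Lin28a, was at 14.6 FPKM in the case column against 16.0 FPKM in the control column, and Rps6ka1, a kinase gene on the far side of Hmgn2, was at 14.9 and 17.5 FPKM. On the other side of Lin28a, Cd52, a lymphocyte surface gene at 74.7 kb, was at 2.27 and 6.73 FPKM, where the authors' deposited table lists p = 0.0507. Of 26 genes within 500 kb of Lin28a that were analysed, 23 were lower in the case column, where 39.2% of all genes were, and their median difference was -0.18. After rescaling by the median of ratios 24 of 26 were lower, where 49.4% of all genes were. At least 1.5-fold lower were 2 of the 26, Hmgn2 and Cd52. The other neighbours differed by less, the median staying at -0.18 without Hmgn2, and within 1000 kb 29 of 41 were lower with a median of -0.11. The distance was chosen after the place of Hmgn2 was seen, and the part that the position plays in its level was not tested.

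**Figure D3:**
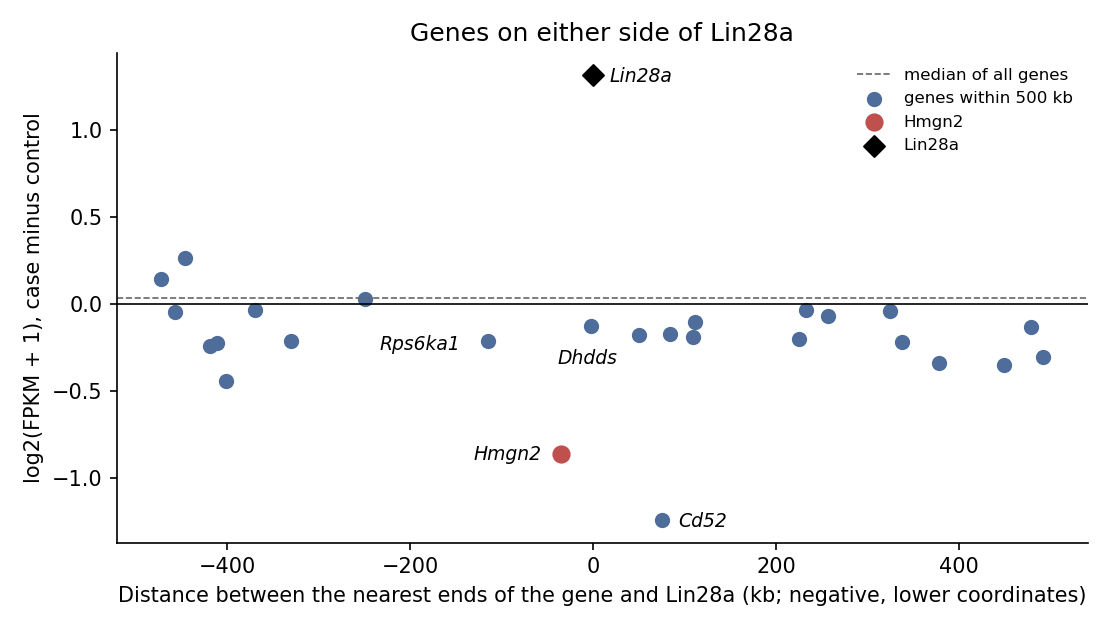
Difference of log2(FPKM + 1), case minus control, against the distance in kb between Lin28a and each of the 26 genes within 500 kb (blue), with Hmgn2 (red) and Lin28a itself (black diamond, at 1.32). Of the 26 neighbours 23 lie below 0, and Hmgn2 and Cd52 lie furthest down.

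Genes that work beside the HMGN and HMGB proteins were described from lists given by name. These lists were chosen with earlier results of these data known. The share to set beside each count is that over all genes analysed, of which 60.8% were higher in the case column and 39.2% lower. After median-of-ratios rescaling these shares were 50.6% and 49.4%, and after quantile scaling 52.0% and 47.8%. Linker histones, the competitors of HMGN proteins on the nucleosome, had 4 of 11 genes at 1 FPKM or more. All 4 were lower in the case column, from -0.24 to only -0.0090 for H1f0, with a median of -0.15. H1f0, of slowly dividing and differentiated cells, was at 117 and 118 FPKM, H1f10 at 30.2 and 35.9, H1f2 at 5.56 and 6.55, and H1f1 at 1.37 and 1.55 FPKM. Transcripts of the replication-dependent histones lack a poly(A) tail, so their levels depend on how RNA was selected, which the labels do not say. The other HMG family and HMG-box genes had 14 of 16 at 1 FPKM or more, 11 of them higher (9 after either rescaling of the columns), with a median of 0.07. Ssrp1, of the FACT histone chaperone, was at 92.6 and 84.3 FPKM, Hmga1, an AT-hook protein, at 61.5 and 62.0, and Ubtf, which works with RNA polymerase I, at 61.1 and 59.9 FPKM. Hmga2, a well known let-7 target, was at 0.0801 and 0.0619 FPKM, and Hmgb4, of spermatids, was listed at 0 in both columns.

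Partners of HMGB proteins inside the cell differed little. The SET complex and associated genes had all 8 at 1 FPKM or more, with a median of 0.07. In the case column 7 of them were higher, where 60.8% of all genes analysed were. After median-of-ratios rescaling 6 were higher, where 50.6% of all genes were. Anp32b, an acidic histone chaperone, was at 215 and 209 FPKM, and its relative Anp32a at 70.1 and 62.4. The nuclear export receptor Xpo1 was at 77.3 and 73.8 FPKM, the DNA repair endonuclease Apex1 at 74.7 and 75.0, and the kinase gene Nme1 at 69.1 and 68.0. Set itself, an inhibitor of histone acetylation, was at 45.9 and 43.8 FPKM, the import receptor Kpna1 at 20.1 and 18.9, and the exonuclease Trex1 at 4.83 and 4.39. These values span -0.0057 to 0.17 on the log2 scale, a narrow range beside the -0.86 of Hmgn2.

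Receptors of released HMGB1 were scarce. Ager, the receptor RAGE, was at 1.07 and 0.626 FPKM, Tlr2 at 0.911 and 0.776, Tlr4 at 0.393 and 0.368, and Havcr2 at 0.281 and 0.253 FPKM. The chemokine Cxcl12, which HMGB1 can bind, was at 41.6 and 35.3 FPKM and its receptor Cxcr4 at 3.13 and 3.44. Thbd, thrombomodulin, was at 27.2 and 24.1 FPKM and Cd24a at 12.8 and 10.9 FPKM. Of the 4 genes at 1 FPKM or more 3 were higher, where 60.8% of all genes analysed were, with a median of 0.20. A p-value was listed for 4 of these 4 genes, 4 of 4 linker histone genes, 10 of 14 other HMG and HMG-box genes and 7 of 8 genes of the SET list, and the rest had a failed test. By the authors' q-value of 0.05, 0 of their rows passed, where 0.0514% of all tested rows did. At the authors' unadjusted p under 0.05 there were 0 as well, where 1.28% of all tested rows were. Nothing is read from these counts.

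Markers of the cell types of the testis are set beside Hmgn2. Their lists were chosen with earlier results of these data known, so nothing is read from the counts. Of all genes analysed, 60.8% were higher in the case column and 39.2% lower, the share to set beside each count. After median-of-ratios rescaling 50.6% were higher, and after quantile scaling 52.0%. Meiotic prophase genes were lower in all 8 of 8 cases, from -1.42 to -0.61, with a median of -0.87, and their summed level was 243 and 438 FPKM. Of the 7 with a listed p-value, 6 had an unadjusted p under 0.05, all lower, where 1.28% of all tested rows had one, and 0 passed the q-value of 0.05. The difference of Hmgn2 lies inside that range. It is also inside the wider range of the Sertoli genes given below, but only through their lowest gene, Rhox5. Spermatogonial genes had a median of -0.04 (2 of 8 higher, 1 after either rescaling, from -0.36 to 0.16) and summed to 454 and 482 FPKM, and germ cell genes at large a median of -0.18 (0 of 4 higher, from -0.22 to -0.0035) and summed to 376 and 420 FPKM. Leydig genes had a median of 0.43 (6 of 6 higher, from 0.18 to 0.63) and summed to 328 and 252 FPKM. Peritubular and stromal genes had a median of 0.22 (5 of 5 higher, from 0.076 to 0.41) and summed to 538 and 456 FPKM, and endothelial genes 0.27 (4 of 4 higher, from 0.19 to 0.30) with sums of 35.6 and 29.5 FPKM. Sertoli genes had a median of 0.12 (5 of 8 higher, from -1.03 to 0.52) and summed to 2962 and 2979 FPKM. Their lowest was Rhox5, a homeobox gene of chromosome X, at 8.90 and 19.3 FPKM, a difference larger than that of Hmgn2. The next lowest Sertoli gene was Clu, at -0.15. At the unadjusted p under 0.05 there was 1 Sertoli gene, Rhox5, and 1 Leydig gene, Hsd17b3, which makes testosterone, at 38.7 and 24.6 FPKM, and 0 genes of the remaining cell types. Macrophage genes had a median of -0.16 (0 of 3 higher, from -0.50 to -0.093, Cd68 not being analysed here) and summed to 40.2 and 54.8 FPKM, and red blood cell genes 0.06 (4 of 4 higher, 3 after either rescaling, from 0.010 to 0.085) with sums of 1082 and 1032 FPKM. No marker analysed was at 0 in either column. The part that these cell types play in the level of Hmgn2 was not tested. The other 6 HMGN and HMGB genes lay outside the range of the meiotic genes and inside that of the Sertoli genes, Hmgn3 and Hmgb2 only through Rhox5.

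**Figure D4:**
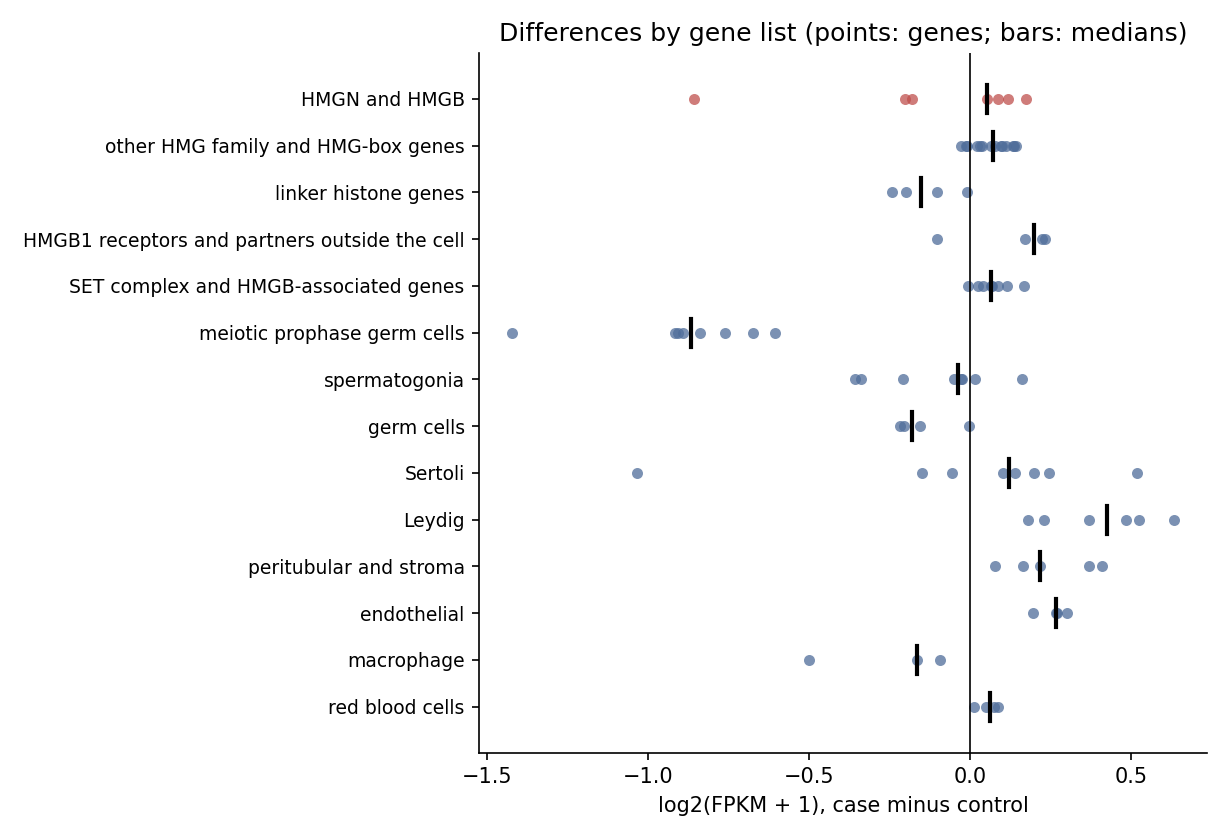
Difference of log2(FPKM + 1), case minus control, for the 7 HMGN and HMGB genes (red) and for the genes of each list and cell type at 1 FPKM or more (blue), with a bar at each median. Hmgn2 at -0.86 lies within the spread of the meiotic prophase genes, whose median is -0.87. It lies within that of the Sertoli genes only through Rhox5 at -1.03, the next lowest being Clu at -0.15. The other 6 HMGN and HMGB genes sit between -0.20 and 0.17.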

How the data were processed

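RNA-seq of 6 testis libraries was analysed, 3 per genotype. Reads were aligned with TopHat2 2.0.9 to mm10, per the submitters' processing notes, while the quantification program and the gene annotation are not given in the sources used here. Levels were deposited by the authors as FPKM in columns named case and control, 1 value per group and RefSeq transcript, and, for each row, the status, log2 ratio, p-value and q-value of a test, per the file headers. That log2 ratio is one of control over case, to within 5.01e-05. Every direction above is case against control.

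The 7 genes, the lists and the motifs were chosen with earlier results of these data known. Their rows were found by name, and FPKM was summed over the rows of a gene. Other rows were named by accession from the RefSeq table of GRCm38.p6 (29071 of 29660), otherwise by the name in the table, and rows with neither kept their accession. Genes with a mean of at least 1 FPKM were kept, and log2(FPKM + 1) was compared. Positions within 500 kb of Lin28a are gaps between the nearest gene ends. Starts are 1-based, with 1 added to the deposited ones. Named genes are the members, Lin28a, and from each of the 4 lists of HMG-related genes all analysed genes where they are at most 12, otherwise the 3 with the highest level. Cell type markers fall outside this rule and are given by list; the 4 receptor genes and 2 HMG genes under 1 FPKM, the genes of like level or near Lin28a, and Rhox5 and Hsd17b3 were added after their values were seen. A test across libraries (limma) and genes of like pattern across samples need values per library, and were not run. Protein features were not computed here. Summing over rows, the log2 ratio without a pseudocount, and median-of-ratios and quantile scaling were tested on simulated data with 200 shifted genes. The steps for lists, neighbours, genes of like level and motifs were not simulated. Python 3.11.15, pandas 2.3.3, numpy 2.4.6 and matplotlib 3.10.9 were used.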

Additional observations from a re-analysis of the deposited data

How the results depend on the processing

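Each of the 7 differences was recomputed under 7 alternatives: a pseudocount of 0.1 or none, only rows of status OK, only the row of highest level, median-of-ratios or quantile scaling, and no rows with several names. Of these 49 values 48 kept their sign and moved by under 0.1 on the log2 scale. Many of them could not move. All 8 rows of the family have status OK and 0 have several names, so those alternatives leave every value as it was. For the 6 genes with a single row, the row of highest level is the gene itself. The other was Hmgn3 at -0.024 with its row of highest level alone, where its second row is left out. Hmgn2 ranged from -0.89 to -0.86. Scaling by the median of ratios divided the case column by 1.02 and moved the median of all genes from 0.03 to 0.002. The family median stayed between 0.01 and 0.07, including quantile scaling and leaving out Hmgn2, both added after seeing the data. The count of rows past the authors' q-value was 0 with the adjustment repeated over rows of at least 1 FPKM and at a threshold of 0.1. The median of genes near Lin28a was -0.18 within 250 kb and -0.11 within 1000 kb, also added after seeing the data. No paired analysis was possible because the file pools the libraries of each group, and leaving out each library was not run for the same reason. Depth is unknown and sets no interval.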
